A study of Mus musculus with 6 samples.

Results

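The 9 genes described here encode transcription factors that give regions of the developing brain their identity. They were chosen by symbol: En1, En2, Lmx1b, Foxa1, Foxa2, Otx2, Emx2, Pax6 and Dlx2, each found once among the 42365 genes of the count table. RNA of the mouse line NPC, neural progenitors that in culture can form neurons as well as glia, was sequenced to compare cells labelled PARKIN KO with wild-type cells of the same line. The 6 libraries formed 3 groups of 2: KO clone 1 (genotype KO), KO clone 2 (genotype KO), and parental cells (genotype WT, titled clone 1 and clone 2). No treatment or time is given in the labels, and the sources used here do not say how the knockout was made. Each knockout clone is 1 cell line with 2 libraries. Nothing in the labels says that the libraries came from separate cultures, so the p-values of the fit of single libraries measure only the spread between libraries, which may be technical.

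As background, the embryonic brain is divided into domains by factors that are switched on in overlapping bands. Otx2 marks the forebrain and midbrain and sets the front side of the midbrain-hindbrain border. En1 and En2, the paired engrailed homeobox genes, mark the midbrain and the front of the hindbrain around that border. Lmx1b is a LIM homeobox gene of the same border and, with the forkhead genes Foxa1 and Foxa2, of the ventral midline called the floor plate, where midbrain dopaminergic neurons arise. Emx2 and Pax6 pattern the dorsal forebrain in opposing gradients, and Dlx2 acts in the ventral forebrain that produces inhibitory neurons.

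Of the 9 factors, 1 fell, 4 rose, 2 did not pass the test and 2 were too low to be tested when the labelled knockout clones were compared with parental cells. En1 fell, while En2, Lmx1b, Foxa1 and Emx2 rose. Pax6 and Dlx2 did not pass, and Foxa2 and Otx2 were nearly silent in every library, under 1 CPM (a count per 1000000 counts of the library). The 5 calls among 7 tested factors stand beside 26.7% of all 24506 tested genes (13% called higher and 13.6% called lower). The median log2 fold change was 0.86 for the 7 factors and 0.03 for all tested genes. The test was edgeR's quasi-likelihood test with Benjamini-Hochberg adjustment over all genes, with the 2 libraries of each clone added, so that 2 clones were set against 2 parental libraries.

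**Figure D1:**
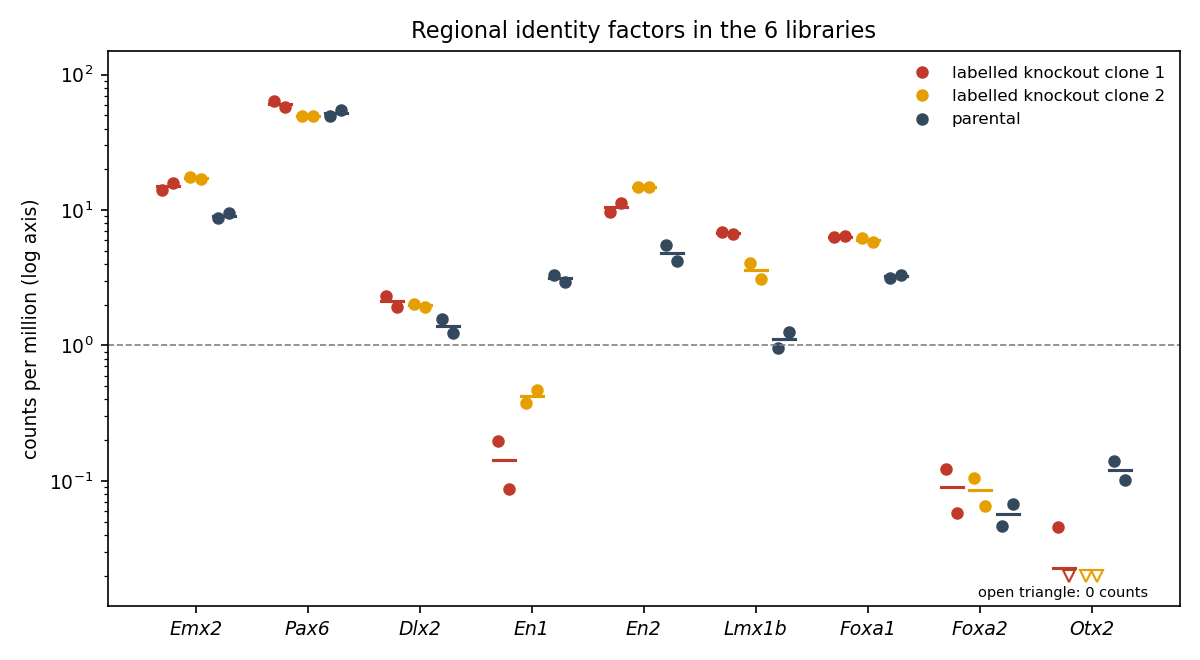
Levels of the 9 factors in CPM on a log axis, with a point for each library, a bar for the mean of each group of 2 libraries, and an open triangle for a library with 0 counts. The dashed line marks 1 CPM: Foxa2 and Otx2 lie under it in all 6 libraries and En1 only in the 4 labelled knockout libraries.

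Promoter windows of En1, Lmx1b and Emx2 are printed because En1 is the factor that fell, and Lmx1b and Emx2 rose together with a gene on their opposite strand. They are RefSeq windows of 300 bases around a transcription start annotated by RefSeq in GRCm38.p6, 5′ to 3′ on the strand of the gene. They lie at chr1:120602237-120602536 (plus strand) for En1, chr2:33641049-33641348 (minus strand) for Lmx1b and chr19:59458440-59458739 (plus strand) for Emx2. The GENCODE gene starts lie inside the window for En1 and outside it for Lmx1b and Emx2, since the annotations place these starts differently. Capitals mark CACGTG (an E-box) and CCAAT or its complement ATTGG (the CCAAT box).
En1: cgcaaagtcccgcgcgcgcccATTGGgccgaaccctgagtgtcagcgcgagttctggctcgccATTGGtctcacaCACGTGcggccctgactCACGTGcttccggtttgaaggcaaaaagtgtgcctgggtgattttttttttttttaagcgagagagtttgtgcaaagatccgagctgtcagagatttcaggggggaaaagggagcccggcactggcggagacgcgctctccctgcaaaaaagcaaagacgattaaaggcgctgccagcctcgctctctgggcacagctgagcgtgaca
Lmx1b: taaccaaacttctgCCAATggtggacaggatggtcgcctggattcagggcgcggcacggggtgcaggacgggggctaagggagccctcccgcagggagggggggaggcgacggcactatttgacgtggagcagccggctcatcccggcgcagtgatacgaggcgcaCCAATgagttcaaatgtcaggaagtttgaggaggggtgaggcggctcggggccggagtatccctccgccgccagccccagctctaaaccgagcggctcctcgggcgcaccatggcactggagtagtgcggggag
Emx2: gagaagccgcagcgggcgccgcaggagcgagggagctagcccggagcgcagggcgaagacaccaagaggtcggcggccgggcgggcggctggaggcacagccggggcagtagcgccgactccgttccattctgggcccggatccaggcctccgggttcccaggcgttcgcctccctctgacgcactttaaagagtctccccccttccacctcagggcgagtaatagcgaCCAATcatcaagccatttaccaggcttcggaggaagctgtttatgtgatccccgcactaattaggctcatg
CACGTG occurs 2 times in the En1 window and is not in the Lmx1b and Emx2 windows, and on either strand 7.15% of 32851 RefSeq windows hold it. The window of Dlx2, a factor that did not pass, is not printed and holds it 2 times as well. The CCAAT box occurs 2 times in the En1 window, 2 times in the Lmx1b window and 1 time in the Emx2 window, and 37.4% of all windows hold it. These matches describe letters only. The windows had 57%, 65.7% and 64.3% G and C in the order printed, against a median of 52.7% over all windows. Windows were found for 8 of the 9 factors, and En2 is named only.

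The libraries held 58871554 to 69530032 counts. All levels below are in CPM (counts scaled to library size after TMM normalization), with SD over the 2 libraries of a group after ±. The clones are called labelled knockout because their genotype is taken from the labels. Of 12 neural progenitor markers, 11 were at 1 CPM or more in all 6 libraries, among them Nes and Sox2, while Prom1 was under 1 CPM in each group mean. These markers were present but not steady: 5 of the 12 rose and 5 fell with both clones. On the log2 scale Nes changed by 1.19 and Fabp7 by 1.91, while Sox1 changed by -4.18, Sox9 by -1.82 and Msi1 by -1.29. Astrocyte markers moved with the groups: 6 of 10 fell and 1 rose, and their summed level was 2133 to 2184 CPM in clone 1, 3065 to 3107 CPM in clone 2 and 9764 to 9926 CPM in parental cells. Oligodendrocyte lineage markers summed to 5261 to 5364 CPM in clone 1, 6199 to 6465 CPM in clone 2 and 1451 to 1458 CPM in parental cells, with 3 of 10 higher and 4 lower. Ependymal and choroid markers summed to 7.82 to 7.99 CPM in clone 1, 7.97 to 8.59 CPM in clone 2 and 38.6 to 40.3 CPM in parental cells, with 2 of 4 tested lower. Neuron markers summed to 1375 to 1532 CPM in clone 1, 1058 to 1080 CPM in clone 2 and 1081 to 1088 CPM in parental cells, with 4 of 9 tested lower. Mesenchyme and fibroblast markers summed to 41.5 to 45.8 CPM in clone 1, 28.6 to 29.5 CPM in clone 2 and 112 to 117 CPM in parental cells, with 2 of 9 tested lower. Pluripotency markers summed to 67.7 to 73.6 CPM in clone 1, 54.5 to 57.2 CPM in clone 2 and 34.2 to 34.4 CPM in parental cells, with 2 of 3 tested higher and 1 lower. Microglia and blood markers summed to 2.03 CPM or less in every library, with 1 of 5 tested lower. Several of these sums came mostly from 1 gene, given here for clone 1, clone 2 and parental cells in order. Klf4 of the pluripotency list was at 68.1, 53.0 and 32.7 CPM, and Prrx1 of the mesenchyme list at 35.6, 26.3 and 105 CPM. Foxj1 of the ependymal list, which also holds Otx2, was at 6.98, 7.71 and 38.5 CPM. Map2 of the neuron list was at 1403, 1035 and 975 CPM and did not pass, while Dcx and Tubb3 were among the 4 lower. No marker of these lists was at 0 in all libraries, and their part in the results below was not tested.

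En1 (chr1:120602418-120607992, plus strand, GRCm38) had 13 and 6 counts in clone 1 and 25 and 29 counts in clone 2, against 214 and 173 counts in parental cells. This was 0.143 ± 0.0784 CPM in clone 1, 0.424 ± 0.0658 CPM in clone 2 and 3.14 ± 0.284 CPM in parental cells (n = 2 each). All 4 labelled knockout libraries lay under 1 CPM and both parental libraries above it, with no overlap between the groups. En1 was 10.9-fold lower in the clones (log2 fold change -3.44, SE 0.51, adjusted p = 0.00813 in edgeR's test), and 647 of 24506 tested genes (2.64%) had a lower fold change. Non-overlap of this kind, lower in the clones, held for 29.6% of all tested genes. In these bulk samples, fewer cells that use a gene and less RNA per cell cannot be told apart.

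En2, its paralogue, moved the other way. En2 (chr5:28165694-28172166, plus strand) had 639 and 768 counts in clone 1 and 979 and 916 counts in clone 2, against 353 and 247 counts in parental cells. Every labelled knockout library was above both parental ones, and clone 2 was above clone 1. Its level was 10.5 ± 1.02 CPM in clone 1, 14.8 ± 0.0587 CPM in clone 2 and 4.85 ± 0.928 CPM in parental cells. En2 rose 2.67-fold (log2 fold change 1.42, SE 0.24, adjusted p = 0.0128 in edgeR's test). Without parental library 2 the adjusted p was 0.0685.

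The makeup of engrailed RNA can be read within each library, where scaling between libraries plays no part. Per kilobase of exon, En1 made up 2.67% and 1.04% of the engrailed total in clone 1 and 3.33% and 4.1% in clone 2, against 45.0% and 48.6% in parental cells. The 2 genes thus stood nearly level in parental cells, and En2 made up nearly all engrailed RNA in the clones. The summed engrailed level, unlike these shares, depends on scaling between libraries. It was 2.83 and 3.20 CPM per kilobase in clone 1 and 4.32 and 4.38 in clone 2, against 2.83 and 2.30 in parental cells. Clone 1 library 1 and parental library 1 had nearly the same sum, while both clone 2 libraries lay above all others.

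**Figure D2:**
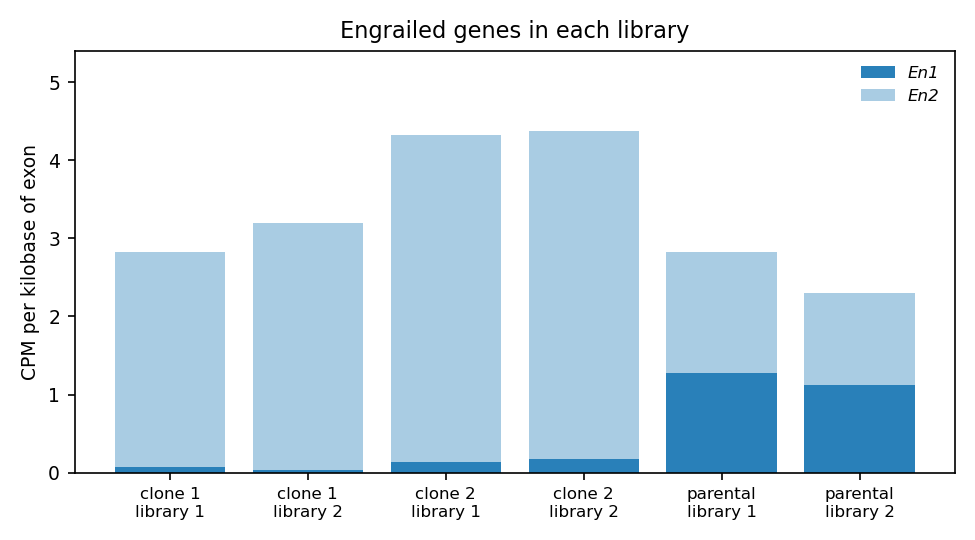
Stacked levels of En1 (dark) and En2 (light) in CPM per kilobase of exon, with a bar for each of the 6 libraries. En1 makes up 1.04% to 4.1% of the bar in the labelled knockout libraries and 45.0% to 48.6% in the parental ones.

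Lmx1b, which works beside the engrailed genes at the midbrain-hindbrain border, had the largest rise of the 7 tested factors. Lmx1b (chr2:33560965-33640511, minus strand) had 448 and 459 counts in clone 1 and 268 and 192 counts in clone 2, against 62 and 74 counts in parental cells. One parental library was under 1 CPM (0.966) and the other just above it (1.26), and all 4 labelled knockout libraries were at 3.12 to 6.83 CPM. Lmx1b rose 4.76-fold (log2 fold change 2.25, SE 0.36, adjusted p = 0.0104 in edgeR's test), and 2.49% of tested genes had a higher fold change.

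Otx2, the factor in front of the border, was hardly detected. Otx2 (chr14:48657677-48673819, minus strand) had 3 and 0 counts in clone 1 and 0 and 0 counts in clone 2, against 9 and 6 counts in parental cells. The highest of the 6 libraries was at 0.14 CPM. Both clone 2 libraries were at 0, where a count of 0 allows up to 0.0453 and 0.0487 CPM (3 counts of each library). With the floor of 3 counts taken over the group, the parental level was 5.19-fold above that floor. This ratio leaves out the counting error of the parental counts, so it is not a lower bound of the difference. In clone 1 the ratio of Otx2 to parental cells was 0.183, with an exact 95% interval of 0.034 to 0.648 that covers counting error only. With no filter on low counts, Otx2 had adjusted p = 0.103 in edgeR's test for both clones against parental cells, 0.15 for clone 1 and 0.00636 for clone 2.

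Of the floor plate forkhead factors, Foxa1 rose and Foxa2 was nearly silent. Foxa1 (chr12:57540628-57546916, minus strand) had 417 and 439 counts in clone 1 and 414 and 361 counts in clone 2, against 201 and 197 counts in parental cells. Its 4 labelled knockout libraries lay between 5.86 and 6.40 CPM and did not overlap the parental ones at 3.13 and 3.34 CPM. Foxa1 rose 1.96-fold (log2 fold change 0.97, SE 0.16, adjusted p = 0.0108 in edgeR's test). Without parental library 1 the adjusted p was 0.162, and without parental library 2 it was 0.127.

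Foxa2 (chr2:148042877-148046969, minus strand) had 8 and 4 counts in clone 1 and 7 and 4 counts in clone 2, against 3 and 4 counts in parental cells. All libraries were at 0.0468 to 0.122 CPM, and the groups overlapped. The ratio to parental cells was 1.57 in clone 1 (exact 95% interval 0.571 to 4.71) and 1.51 in clone 2 (0.536 to 4.60). Per kilobase, Foxa2 made up 1.26% to 2.62% of the sum of both Foxa genes in the labelled knockout libraries and 2.05% and 2.77% in the parental ones. Foxa1 and Foxa2 also act in endoderm, the germ layer of gut and liver. A list of 10 endoderm markers summed to only 1.82 to 2.55 CPM in clone 1, 2.47 to 2.48 CPM in clone 2 and 2.10 to 2.15 CPM in parental cells, with 0 of 3 tested markers called in either direction with both clones. In the fit of single libraries 4 were tested, of which 1 was higher in clone 1, and 2 were higher and 2 lower in clone 2. None of the 10 was at 0 in all libraries, and 8 were under 1 CPM in each.

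Among the forebrain factors, Emx2 rose. Emx2 (chr19:59458372-59465357, plus strand) had 928 and 1084 counts in clone 1 and 1168 and 1050 counts in clone 2, against 560 and 559 counts in parental cells. The level was 15.0 ± 1.16 CPM in clone 1, 17.3 ± 0.421 CPM in clone 2 and 9.11 ± 0.533 CPM in parental cells, without overlap between labelled knockout and parental libraries. Emx2 rose 1.82-fold (log2 fold change 0.86, SE 0.14, adjusted p = 0.0116 in edgeR's test). Its adjusted p was 0.151 without parental library 1 and 0.105 without parental library 2.

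Pax6, also a general factor of radial glia, had the highest count of the 9 factors in every library. Pax6 (chr2:105668900-105697364, plus strand) had 4192 and 3972 counts in clone 1 and 3286 and 3039 counts in clone 2, against 3174 and 3214 counts in parental cells. Clone 2 overlapped the parental libraries and clone 1 lay above them. For both clones together the log2 fold change of Pax6 was 0.12 (SE 0.13, adjusted p = 0.546 in edgeR's test), and an interval of 2 SE ran from -0.14 to 0.37.

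Dlx2 (chr2:71543408-71546754, minus strand) had 151 and 133 counts in clone 1 and 135 and 119 counts in clone 2, against 100 and 73 counts in parental cells. Its labelled knockout libraries, at 1.93 to 2.30 CPM, were above the parental ones at 1.24 and 1.56 CPM, as were the clones for 27% of all tested genes. The log2 fold change was 0.58 (SE 0.22) and did not pass after adjustment (adjusted p = 0.109 in edgeR's test). With the 4 labelled knockout libraries taken as replicates, the adjusted p was 0.047. That fit treats the 2 libraries of each clone as separate knockouts, which they are not, so Dlx2 is not counted as passing.

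**Figure D3:**
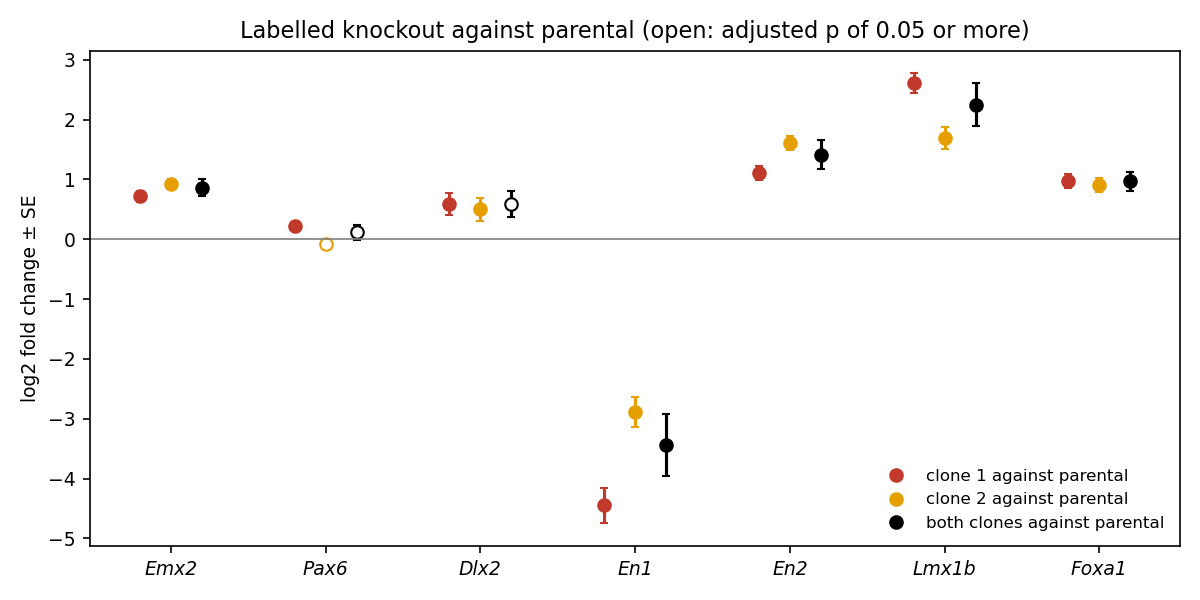
Log2 fold change with its standard error for the 7 tested factors in clone 1, in clone 2 and in both clones together, each against parental cells; open points did not pass an adjusted p of 0.05. En1 is the factor called lower in each comparison, Lmx1b rises most with both clones together (2.25), and Pax6 in clone 2 lies just under 0 (-0.07) without passing.

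In CPM per kilobase of exon, a scale on which different genes can be set in order, Pax6, Emx2 and En2 stood at the top in every group. In clone 1 the order was Pax6 (5.21), Emx2 (4.99), En2 (2.96), Foxa1 (1.92), Lmx1b (1.39), Dlx2 (0.743), En1 (0.0544), Foxa2 (0.038) and Otx2 (0.0054). The libraries of Pax6 and Emx2 overlapped there, and so did those of En1 and Foxa2. In clone 2 Emx2 led at 5.77, followed by Pax6 at 4.23 and En2 at 4.19, and the libraries of Lmx1b (0.734) and Dlx2 (0.695) overlapped. In parental cells the order was Pax6 (4.45), Emx2 (3.03), En2 (1.37), En1 (1.19), Foxa1 (0.973), Dlx2 (0.49) and Lmx1b (0.228), with En2 and En1 overlapping, and Otx2 and Foxa2 last and overlapping. En1 thus stood at rank 4 in parental cells and at rank 7 in both clones. By group mean, En1, Foxa2 and Otx2 were under 1 CPM in each clone, and only Foxa2 and Otx2 in parental cells.

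A second fit kept the 6 libraries separate and set each clone against parental cells. Both clones are compared with the same parental libraries, so their values are given side by side. In clone 1 all 7 tested factors passed, 6 higher and 1 lower, where 54.5% of 23400 tested genes passed (27.3% higher and 27.2% lower). In clone 2, 6 of 7 passed, 5 higher and 1 lower, where 53.5% of genes passed (26.7% higher and 26.8% lower). The libraries of clone 1 did not overlap the parental ones for any of the 7, 6 higher and 1 lower, as for 75.6% of all genes (37.4% higher and 38.2% lower). Those of clone 2 did not overlap for 6 of 7, all but Pax6, 5 higher and 1 lower, as for 77.6% of all genes (39.5% higher and 38.1% lower). Since most genes passed in each clone, the sizes say more than the counts. En1 changed by -4.45 ± 0.30 (SE) in clone 1 and -2.89 ± 0.25 in clone 2 on the log2 scale. Lmx1b changed by 2.61 ± 0.17 in clone 1 and 1.69 ± 0.18 in clone 2, and En2 by 1.11 ± 0.12 and 1.61 ± 0.12 in the same order. Foxa1 changed by 0.98 ± 0.12 in clone 1 and 0.90 ± 0.12 in clone 2, and Emx2 by 0.72 ± 0.087 in clone 1 and 0.93 ± 0.086 in clone 2.

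Pax6 passed in clone 1 only (0.23 ± 0.059, adjusted p = 0.00381 in edgeR's test), and without parental library 1 it did not pass there (adjusted p = 0.132). In clone 2 its log2 fold change was -0.07 ± 0.060 (adjusted p = 0.335). Dlx2 passed in clone 1 (0.59 ± 0.19, adjusted p = 0.0134) and in clone 2 (0.50 ± 0.19, adjusted p = 0.0357), but with DESeq2 it passed in neither clone (adjusted p = 0.0563 and 0.128), nor with edgeR without parental library 2 (adjusted p = 0.151 and 0.239).

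The difference between the clones was tested directly. It passed for 4 of 7 factors, 2 higher and 2 lower in clone 2, where 36.4% of 23400 tested genes passed (16.1% higher and 20.3% lower). The libraries of the clones did not overlap for 6 of 7 factors, 3 higher and 3 lower, as for 66.3% of all genes (32% higher and 34.3% lower). En1 and En2 were higher in clone 2 than in clone 1, by 1.56 ± 0.39 (SE) and 0.50 ± 0.11 on the log2 scale (adjusted p = 0.00497 and 0.00169 in edgeR's test). Lmx1b and Pax6 were lower in clone 2 than in clone 1, by -0.91 ± 0.14 and -0.30 ± 0.059 (adjusted p = 9.37e-05 and 0.000808). Foxa1, Dlx2 and Emx2 did not pass (adjusted p = 0.64, 0.733 and 0.0583). The 2 SE intervals of the difference between clones were -0.29 to 0.14 for Foxa1 and -0.45 to 0.26 for Dlx2. For Emx2 the interval was 0.05 to 0.38, and it passed with upper quartile scaling (adjusted p = 0.0312).

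Genes beside the factors were then examined, since counts were made with no stated strand setting and reads of overlapping genes on opposite strands cannot be told apart. Within 100 kb of the 9 factors lay 41 other genes with a row in the count table, of which 26 were predicted models or pseudogenes. Of these 41 genes, 18 were tested, 4 rose and 1 fell with both clones against parental cells, a share near the 26.7% of all tested genes, so the count sets the neighbours apart in no way. Cnpy1, which lies 28.7 kb from En2 on the opposite strand and is known from zebrafish as a partner of FGF receptors at the midbrain-hindbrain border, was at 7.46 ± 0.357 CPM in clone 1, 13.0 ± 0.132 CPM in clone 2 and 2.28 ± 0.113 CPM in parental cells. It rose by 2.20 (SE 0.31, adjusted p = 0.00671 in edgeR's test), and like En2 it was higher in clone 2 than in clone 1 (0.80, adjusted p = 5.61e-06). Insig1, a brake on sterol synthesis 87.0 kb from En2, rose by 2.18 (SE 0.12, adjusted p = 0.000463).

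Emx2os, the antisense RNA that overlaps Emx2, was at 10.4 ± 0.305 CPM in clone 1, 10.9 ± 0.887 CPM in clone 2 and 5.01 ± 0.39 CPM in parental cells. It rose by 1.12 (SE 0.15, adjusted p = 0.00546 in edgeR's test), and reads of Emx2 and Emx2os may be shared. C130021I20Rik, a transcript model on the opposite strand 0.682 kb from Lmx1b that was picked for naming after its values were seen, was at 1.56 ± 0.145 CPM in clone 1, 0.883 ± 0.0324 CPM in clone 2 and 0.201 ± 0.0684 CPM in parental cells. It rose by 2.62 (SE 0.43, adjusted p = 0.0113), and like Lmx1b it was lower in clone 2 than in clone 1 (-0.82, adjusted p = 0.0112). The gene that fell was Marco, a scavenger receptor gene 97.4 kb from En1, which was listed at 0 in both clone 1 libraries, at 0.0151 CPM in clone 2 and at 0.139 CPM in parental cells.

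The other tested neighbours did not pass. Mvb12b and Zbtb43 near Lmx1b, Ttc6 and Mipol1 near Foxa1, Elp4 beside Pax6 and Metap1d near Dlx2 had adjusted p from 0.0532 to 0.732 in edgeR's test. Dlx1, which is paired with Dlx2 and acts with it, was at 1.62 ± 0.0318 CPM in clone 1, 1.24 ± 0.0034 CPM in clone 2 and 0.959 ± 0.253 CPM in parental cells (log2 fold change 0.60, SE 0.29, adjusted p = 0.183). Otx2os1 and Pax6os1, antisense to Otx2 and Pax6, were at 0.0651 CPM or less in every group mean and were not tested.

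**Figure D4:**
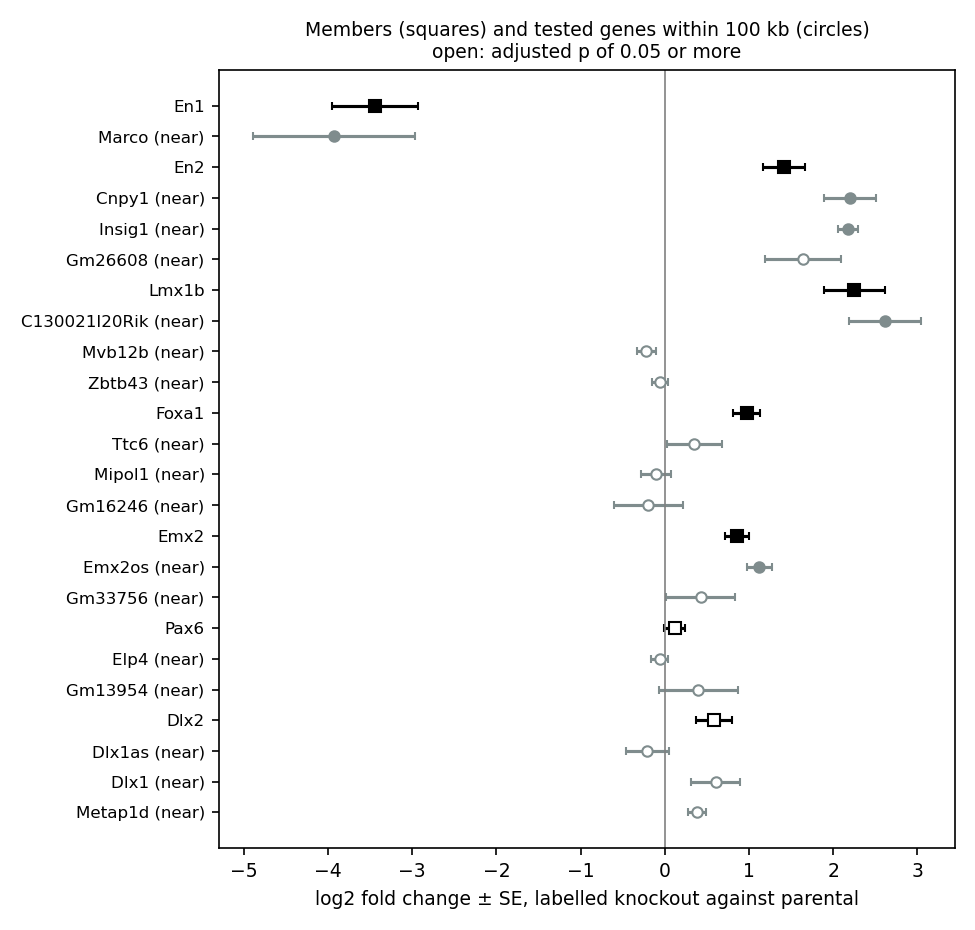
Log2 fold change with its standard error, both labelled knockout clones against parental cells, for the 7 tested factors (squares) and the tested neighbours (circles) placed under the factor they lie near; open symbols did not pass, and 1 predicted gene near Otx2 is not drawn. Cnpy1, Insig1, C130021I20Rik and Emx2os rise beside a factor that rises. Other tested neighbours of rising factors, such as Mvb12b near Lmx1b and Mipol1 near Foxa1, lie under 0 without passing.

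By Euclidean distance between log2 CPM profiles over the 6 libraries, each centred on its own mean, those near En1 among 12521 candidate genes included Cep170b (distance 0.705) and Nkx6-2 (0.768), a homeobox gene of ventral progenitors. Cep170b was at 1.77 CPM in clone 1, 3.94 CPM in clone 2 and 32.0 CPM in parental cells. The nearest profile to En2 was Metrnl (0.095), to Lmx1b Hells (0.359), to Foxa1 Casp6 (0.0804), to Emx2 Pkdcc (0.0891), to Pax6 Ap4e1 (0.0438) and to Dlx2 Cd160 (0.115).

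The 116 other genes on lists for brain regions, the floor plate, dopaminergic neurons and cortical progenitors were mostly low. All were found in the table, and 66 had a mean under 1 CPM in every group. Of the 82 tested, 19 rose, 14 fell and 49 did not pass with both clones against parental cells, with a median log2 fold change of 0.14. Over all tested genes 13% rose, 13.6% fell and the median was 0.03. The counts of the single lists below rest on 7 to 16 tested genes each and are to be read against these shares, and several lie near them, such as those of the midbrain and of dopaminergic neurons.

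Of 16 tested telencephalon factors, 2 rose and 4 fell (median -0.24). Among them the zinc finger gene Bcl11b changed by -1.24 and Dmrt3 by -3.18, while the nuclear receptor gene Nr2f2 rose by 0.82 and Eomes by 1.5 (adjusted p from 0.0102 to 0.0209 in edgeR's test). Dmrt3 was at 0.296 CPM or less in every group mean. Nr2f1, Lhx2 and Lef1 were at 16.7 to 84.9 CPM in the group means and did not pass. Of 7 tested ventral forebrain factors, 1 rose, 1 fell and 5 did not pass (list median -1.11). Sp9 fell by 3.64 on the log2 scale (adjusted p = 0.00031). Dlx5 and Dlx6, which share the Dlx family with Dlx2, were at 0.316 CPM or less in every group mean.

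Of 14 tested diencephalon and hypothalamus factors, 2 rose (Irx3 and Barhl2), 1 fell (Otp) and 11 did not pass (median 0.73). Barhl2 and Otp were at 0.394 CPM or less in every group mean. Irx3 was at 10.4 CPM in clone 1, 16.2 CPM in clone 2 and 7.36 CPM in parental cells and rose by 0.89 (adjusted p = 0.0486 in edgeR's test). Foxd1, singled out after its values were seen, was at 0.214 CPM in clone 1 and 3.06 CPM in clone 2, against 0.0566 CPM in parental cells, and it was higher in clone 2 than in clone 1 by 3.81 (adjusted p = 4.47e-08).

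Of 12 tested midbrain and isthmus genes, 2 rose (Cnpy1 and Pax8), 1 fell (Lmx1a) and 9 did not pass (median -0.0029). Pax8 was at 0.298 CPM or less in every group mean. The signals that engrailed genes work with at the border were scarce: Fgf8 was at 0.249 to 0.391 CPM and Wnt1 at 0.0403 CPM or less in the group means. Pax2 and Pax5, further factors of the border, were at 0.379 CPM or less. Lmx1a, the close relative of Lmx1b, was at 0.0749 CPM in clone 1, 0.047 CPM in clone 2 and 0.402 CPM in parental cells and fell by 2.67 (adjusted p = 0.0159 in edgeR's test), opposite in direction to Lmx1b.

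Floor plate genes went both ways, with 4 of 10 tested genes higher and 3 lower (median 0.79). Ntn1, the guidance cue netrin 1, was at 368 CPM in clone 1, 445 CPM in clone 2 and 74.7 CPM in parental cells and rose by 2.48, and Nkx2-2 rose by 1.90 (adjusted p = 0.000375 for both in edgeR's test). The log2 fold change was -2.36 for the cilia factor Foxj1 and -3.61 for Nkx6-2, both lower in the clones (adjusted p = 0.000375 and 0.00223). Slit1 and Ptch1 were also called higher. Shh, the signal of the floor plate, was at 0.0983 CPM or less in every group mean and Corin at 0.0906 CPM or less. Spon1, the floor plate adhesion protein F-spondin, was at 540 CPM in clone 1, 264 CPM in clone 2 and 235 CPM in parental cells and did not pass with both clones (adjusted p = 0.148). The list thus held both abundant and nearly silent genes.

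Of 9 tested hindbrain and cord factors, 3 rose and 2 fell (median 0.61). Lbx1 rose by 2.13 and Hoxa5 by 0.61, while Hoxa2 changed by -0.72 and Hoxb4 by -2.57 (adjusted p from 0.0077 to 0.0411 in edgeR's test). Hoxb4 was at 0.122 CPM or less in every group mean. Of 11 tested dopaminergic neuron genes, 1 rose (Slc18a2) and 2 fell (Lmx1a and Sox6), with a median of -0.06. Th, an enzyme of dopamine synthesis, was at 0.0078 CPM or less in every group mean. Of 10 tested genes tied to Pax6 in cortical progenitors, 5 rose (Fabp7, Eomes, Hes5, Gli3 and Nr2e1) and 2 fell (Neurog2 and Sfrp1), with a median of 0.04. Fabp7, a fatty acid binding protein of radial glia, rose by 1.91, and the proneural factor Neurog2 fell by 4.19 (adjusted p = 0.00031 and 0.00123). Neurog2 was at 0.947 CPM or less and Sfrp1 at 0.301 CPM or less in every group mean.

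**Figure D5:**
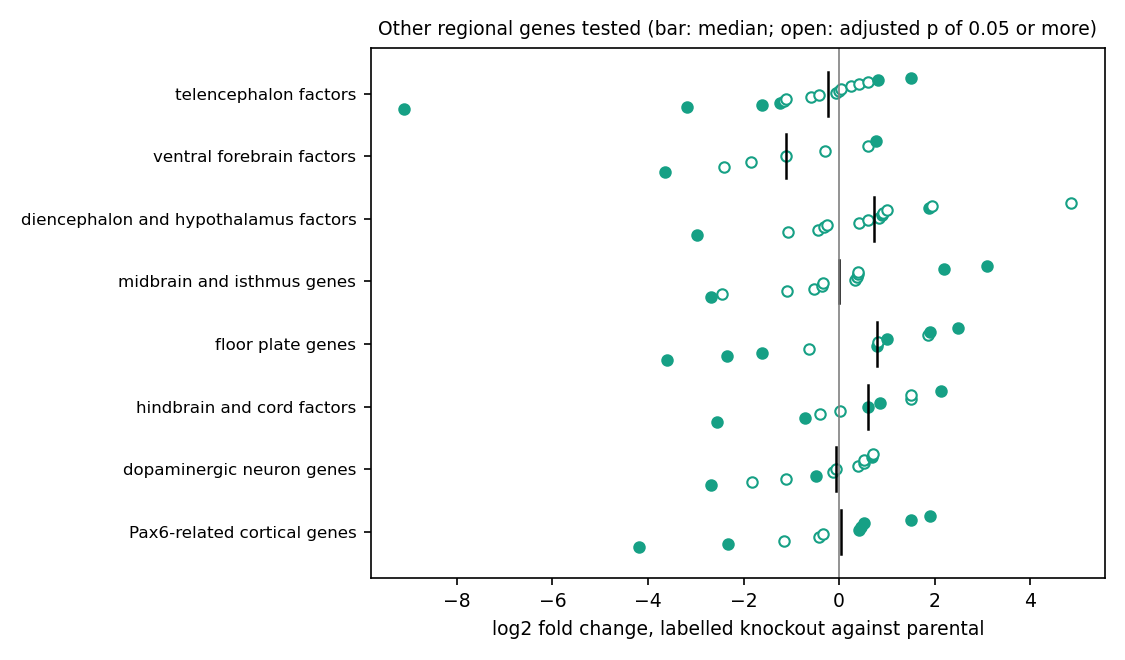
Log2 fold change of each tested gene of the 8 regional lists, both labelled knockout clones against parental cells, with a bar at the median of each list and open points for genes that did not pass. Each list holds genes on both sides of 0.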

How the data were processed

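RNA of 6 libraries was sequenced. Libraries came from either a low-input SMART-Seq or a TruSeq kit, per the labels' protocols, which do not assign kits to libraries. STAR and featureCounts are named, with builds mm10 and GRCm38.p6, per the submitters' processing notes. The authors deposited whole-number counts per gene, not normalized. Groups came from sample titles, columns were matched by library name, and coordinates and exon lengths came from GENCODE M21 (41869 of 42365 IDs found).

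The tests used edgeR 4.0.16 under R 4.3.3 (filterByExpr with a minimum count of 10, TMM, robust quasi-likelihood test, Benjamini-Hochberg threshold of 0.05). SE is the log2 fold change divided by the square root of F. The test was tried on simulated data, drawn independently for each column with few changed genes, and no result here rests on that trial. The members and lists were chosen with earlier results of these data known. Named genes are the 9 members, annotated genes within 100 kb, the nearest profiles, and up to 4 genes a list by adjusted p; others were named for their role. Reads are not independent molecules. Alternatives were other scalings and filters, DESeq2 1.42.0, left-out libraries, a replicate block and libraries as replicates. Some genes, the labelled target among them, are not reported here.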

Additional observations from a re-analysis of the deposited data

Results flagged for a closer look

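The effect of the label against parental cells differed between the clones for 4 of the 7 tested factors, by edgeR's test of clone 2 against clone 1. Of all 23400 tested genes, 36.4% passed the same test. On the log2 scale En1 was higher in clone 2 than in clone 1 by 1.56, with values of 1.08 without clone 1 library 2 and 2.27 without clone 1 library 1, and with adjusted p between 0.000473 and 0.0496 over the alternatives. En2 was higher in clone 2 by 0.50. The values for clone 2 against clone 1 were -0.91 for Lmx1b and -0.30 for Pax6. En1 rests on 6 to 29 counts a library in these clones. Whether this is a difference between clones or between cultures cannot be told apart, since each clone has 1 pair of libraries.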

How the results depend on the processing

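Of 343 values of single factors under the alternatives, 322 kept their direction and their side of the threshold, 14 no longer passed, 5 passed newly and 2 changed sign. En1 and Lmx1b passed with both clones against parental cells under all 13 alternatives (adjusted p up to 0.0348 and 0.0406). The number of genes called for both clones ran from 2529 to 6714 when single libraries were left out, with 2544 without parental library 1 and 2529 without parental library 2, where 1 residual degree of freedom is left and the lone parental library is assumed to vary like the clones. The factors called higher then ran from 1 to 4. The 2 sign changes were of values that had not passed: Pax6 in clone 2 ran from -0.13 to 0.0059 (0.0059 without parental library 2), and Dlx2 in clone 2 against clone 1 from -0.22 to 0.052 (without clone 1 library 1). With no filter, 2 factors were called lower in clone 2, since Otx2 was then tested (adjusted p = 0.00636). Leaving out single libraries for the levels, an alternative chosen after seeing the data, put 2 or 3 factors under 1 CPM in parental cells, with Lmx1b added without library 2. Libraries with the same replicate number did not deviate together (r from -0.014 to 0.017 over 23400 genes). With a replicate block all 40 results stayed the same: single factors kept their side of the threshold, and numbers of calls stayed within 1.5-fold. For both clones against parental cells, this block paired clone 1 with parental library 1 and clone 2 with parental library 2. The r values above do not cover that pairing. In that fit, 6843 genes were called for both clones. Depth limits Otx2 and Foxa2, with at most 9 counts a library.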
